A study of Mus musculus with 10 samples.

Results

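The kappa light chain genes of the mouse were described here in 10 RNA-seq libraries of sorted plasma cells, 5 of IgG1 and 5 of IgM cells. Members were all rows whose Ensembl identifier maps to Igkc, the kappa constant gene, or to an Igkv gene of the type IG_V_gene in GENCODE release M21 on GRCm38. They came to 101 of 47719 identifiers, Igkc and 100 Igkv genes, and the J segments were left out. The cells were splenic plasma cells, tdTomato-positive, from wild-type recipients of S1PR2-CreERT2 Ai14 B1-8germ donor B cells. They were sorted 10 days after NP-CGG in alum. Tamoxifen was given on days 5 and 6 in both groups. S1PR2-CreERT2 drives a Cre, dependent on tamoxifen, in B cells of the germinal centre. Ai14 reports its action by tdTomato, which the cell and its descendants keep. B1-8germ is a heavy chain in its germline form, and it recognises the hapten NP together with lambda, not kappa, light chains. The labels do not say whether the 5 libraries of a group are separate animals, and p-values therefore reflect library-to-library spread that could be technical.

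Each kappa chain is read from a rearranged gene in which a single V gene is joined to a J segment and spliced to Igkc. The V gene encodes most of the variable domain, including the first amino acids of the last hypervariable loop, while Igkc encodes the shared constant domain. Igkv genes lie in both orientations on the chromosome, and those in the same orientation as Igkc join by deletion, the others by inversion. A clone of plasma cells carries the V gene its founder B cell chose, so the V gene levels of a bulk sample reflect which clones it holds and how much light chain RNA they make.

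Depth, estimated from the steps between low values, ran from 26490000 to 37130000 fragments in the IgG1 and from 27030000 to 31260000 in the IgM libraries. Levels are in FPKM, a fragment rate per unit of transcript length within each library, so genes of unlike length can be set side by side. That comparison is less certain for similar genes, between which reads can be shared. The mu constant gene Ighm averaged 1170.3 FPKM in IgG1 cells, 1.37% of its 85377 FPKM in IgM cells. The gamma 1 gene Ighg1 averaged 93807 FPKM in IgG1 and 14974 FPKM in IgM cells. Summed FPKM of 7 T cell markers was 2.29 to 3.81 in IgG1 and 3.97 to 6.52 in IgM libraries. That of 6 myeloid markers was 1.78 to 4.40 in IgG1 and 0.66 to 3.403 in IgM libraries, with S100a8 and S100a9 at 0 in all. The 5 erythroid markers summed to 0.694 to 4.23 FPKM in IgG1 and 0.0764 to 5.60 FPKM in IgM libraries. Markers of naive and mature B cells (7 genes) summed to 79.1 to 100.9 FPKM in IgG1 and 118 to 258 FPKM in IgM libraries. Of these, Ighd had 93.4 and 119 FPKM in IgM replicates 1 and 3. The 6 plasma cell markers summed to 23220.0 to 26670.0 FPKM in IgG1 and 39720.0 to 43930.0 FPKM in IgM libraries. Most of that sum was Jchain, with means of 21140 FPKM in IgG1 and 38840 FPKM in IgM libraries. Sdc1 averaged 258 FPKM in IgG1 and 284 FPKM in IgM libraries. Xbp1 alone of the 6 had the higher mean in IgG1, 3194 FPKM against 2928 FPKM in IgM libraries. The part of B cell RNA in the kappa differences was not tested.

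All 100 Igkv genes lie on chromosome 6 between 67555497 and 70704177, 38 on the plus strand, which is that of Igkc (start at 70726435), and 62 on the minus strand. Their coding sequences, 338 to 371 bases long, fall into 20 families. Of the genes, 46 are at least 95% identical to another member, so reads can be shared between them and the value of such a gene is uncertain. The ends of 5 V genes show what a rearranged transcript takes from each. They stand for the 3 most abundant members and for those with the largest gain (Igkv11-125) and loss (Igkv5-39) of usage in IgG1 cells by log2 difference, usage being a gene's share of summed Igkv FPKM. Each is the last 120 bases of the coding sequence in GENCODE M21, 5′ to 3′ on the coding strand. The 26 bases in capitals run from the conserved cysteine codon to the end. Those after that codon are the germline part of the last hypervariable loop.
Igkv1-135, chr6:67610389-67610508, plus strand: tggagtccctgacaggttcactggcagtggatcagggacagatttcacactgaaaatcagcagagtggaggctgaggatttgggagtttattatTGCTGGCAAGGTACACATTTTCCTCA
Igkv8-30, chr6:70117061-70117180, minus strand: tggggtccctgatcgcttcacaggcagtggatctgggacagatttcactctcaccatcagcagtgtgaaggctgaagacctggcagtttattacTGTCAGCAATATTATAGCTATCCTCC
Igkv6-15, chr6:70406469-70406588, minus strand: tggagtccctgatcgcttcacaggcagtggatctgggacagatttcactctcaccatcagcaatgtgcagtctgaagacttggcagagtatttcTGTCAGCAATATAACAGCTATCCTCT
Igkv11-125, chr6:67913933-67914052, plus strand: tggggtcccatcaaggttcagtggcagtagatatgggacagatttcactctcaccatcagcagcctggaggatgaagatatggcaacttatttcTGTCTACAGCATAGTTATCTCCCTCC
Igkv5-39, chr6:69900424-69900543, minus strand: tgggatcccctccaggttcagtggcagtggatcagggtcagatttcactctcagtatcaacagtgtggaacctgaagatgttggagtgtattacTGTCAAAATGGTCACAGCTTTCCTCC

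Kappa transcripts were scarcer in IgG1 than in IgM plasma cells, in the constant gene and in the summed V genes. Igkc had 15727, 14466, 16897, 19279 and 20280.3 FPKM in the 5 IgG1 libraries, against 69317, 43425, 43341, 66283 and 46119.9 FPKM in the 5 IgM libraries. Every IgG1 library was below every IgM library, and IgM replicates 1 and 4 stood above the other 3. Its log2 difference, IgG1 minus IgM on log2(FPKM + 1), was -1.61 (SE 0.175, limma adjusted p = 0.000134), and the IgG1 mean was 32.3% of the IgM mean. The 100 Igkv genes summed to 12990.0, 11034, 14278, 16007 and 18196 FPKM in IgG1, against 67359, 41497, 42292, 65079.6 and 45508 FPKM in IgM libraries, again with no overlap. The mean sum in IgG1 cells, 14501 ± 2751 FPKM, was 27.7% of that in IgM cells, 52347 ± 12778 FPKM (SD, n = 5 each). In bulk samples, fewer kappa-bearing cells and less kappa RNA per cell cannot be told apart.

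The V genes were lower relative to their own constant gene in IgG1 cells. The summed Igkv FPKM divided by Igkc FPKM was 0.832 ± 0.0481 in IgG1 and 0.974 ± 0.0119 in IgM libraries (SD, n = 5 each). The range was 0.763 to 0.897 in IgG1, below 0.956 to 0.987 in IgM, and this ratio carries no test. Set against the lambda constant genes Iglc1, Iglc2 and Iglc3, Igkc held 4.78% ± 0.427 of light chain constant FPKM in IgG1 and 11.9% ± 2.39 in IgM libraries. The IgG1 minus IgM difference was -7.13 percentage points (exact permutation test, two-sided, p = 0.00794, the smallest p that 5 against 5 libraries allow). The same share taken over the V genes of both light chains was 4.50% in IgG1 and 12.4% in IgM libraries. Set against the heavy chain, Igkc FPKM was 0.182 of summed Ighm and Ighg1 FPKM in IgG1 and 0.534 in IgM libraries.

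**Figure D1:**
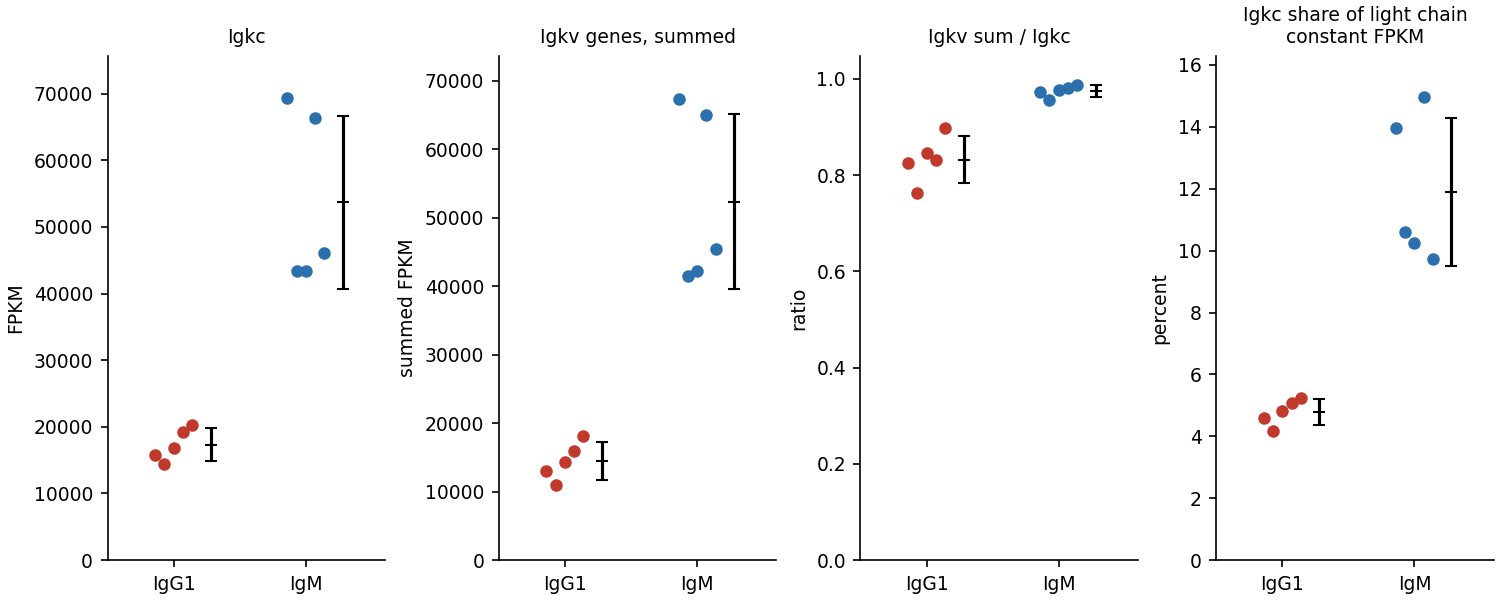
Igkc FPKM, summed Igkv FPKM, their ratio, and the Igkc share of light chain constant FPKM in percent, with 1 point per library, IgG1 in red and IgM in blue, and mean ± SD (n = 5) beside the points. In all 4 panels the IgG1 points lie below the IgM points, with Igkc at 14466 to 20280.3 FPKM in IgG1 and 43341 to 69317 FPKM in IgM.

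All 100 Igkv genes were above 0 in at least 1 library and 77 in all 10. A mean of at least 1 FPKM, the condition for testing, was met by 97, all but Igkv5-37, Igkv1-35 and Igkv3-3. Limma called 20 Igkv genes lower and 4 higher in IgG1 cells at an adjusted p under 0.05, which is 20.6% and 4.12% of those tested. Among all 9900 genes tested, 20.2% were called lower and 18.1% higher, so the share lower was near the background. The groups did not overlap for 8 lower and 2 higher Igkv genes, against 13.3% lower and 13.1% higher of all genes tested. The median log2 difference was -0.53 over the 97 Igkv genes and -0.05 over all genes tested, and 64 Igkv genes had a negative and 33 a positive difference. Igkv genes varied far more between libraries than other genes. Their median coefficient of variation was 74.1% in IgG1 and 109% in IgM libraries. It was 6.85% in IgG1 and 6.37% in IgM libraries for 741 other genes whose mean lay between the quartiles of the Igkv genes, 96.3 and 507 FPKM.

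**Figure D2:**
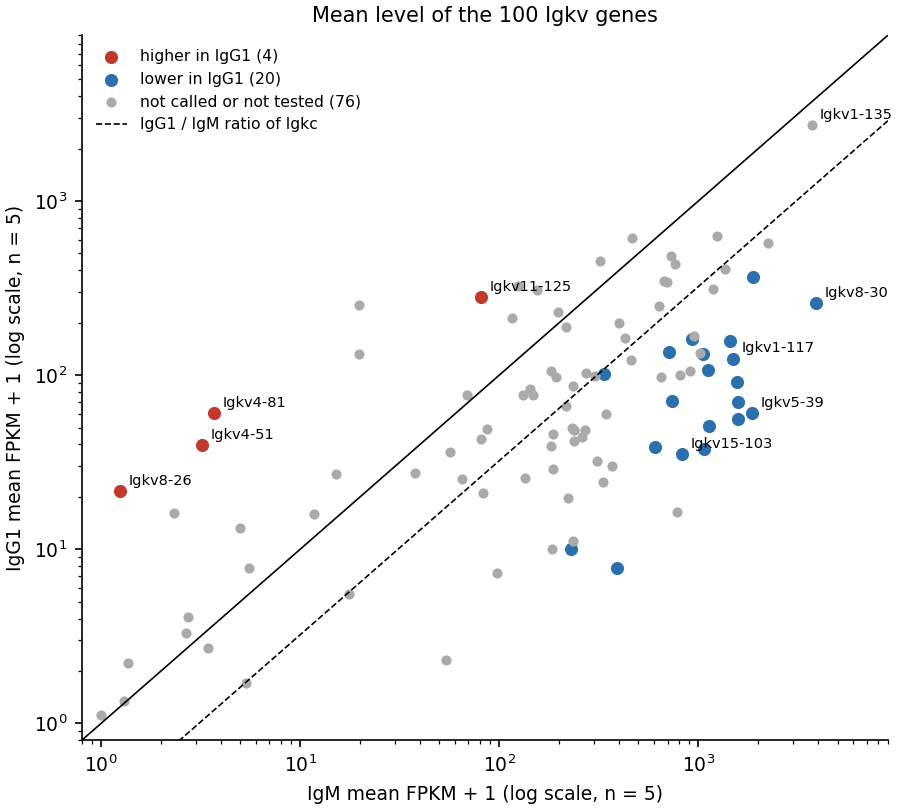
Mean FPKM + 1 of each of the 100 Igkv genes in IgG1 (vertical) against IgM libraries (horizontal), both axes logarithmic, n = 5 each, with the solid line at equal levels and the dashed line at the IgG1 to IgM ratio of Igkc. The 20 genes called lower are blue and the 4 called higher red, and Igkv1-135, at 2729 FPKM in IgG1 and 3697 FPKM in IgM, is the top gene of IgG1 cells and was not called.

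For 8 of the V genes called lower the IgG1 values were all below the lowest IgM value: Igkv1-110, Igkv1-117, Igkv12-44, Igkv15-103, Igkv3-5, Igkv5-39, Igkv8-24 and Igkv8-30. Igkv8-30 (chromosome 6, 70117061 to 70117620, minus strand), the V gene with the highest mean in IgM cells, had 286, 239, 205, 232 and 322 FPKM in IgG1, against 1148, 1748, 4728, 7250.4 and 4686 FPKM in IgM libraries. The IgG1 values were close together, while the IgM values spread, with replicates 1 and 2 lowest (log2 difference -3.64, SE 0.507, limma adjusted p = 0.000601). Igkv15-103 (68437440 to 68437925, plus strand), whose nearest relative among the members is only 75.0% identical, had 35.2, 23.9, 41.2, 23.9 and 46.3 FPKM in IgG1, against 650.2, 1520.3, 862, 552 and 539 FPKM in IgM libraries. It had the smallest p of all Igkv genes in the level test, and its IgG1 libraries lay in a narrow range (log2 difference -4.49, SE 0.335, limma adjusted p = 1.20e-05).

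Igkv5-39 (69900424 to 69900977, minus strand) showed the largest fall of the V genes called. It had 12.03, 26.4, 125, 71.0 and 63.4 FPKM in IgG1, against 679, 1917, 3344, 2419 and 981 FPKM in IgM libraries (log2 difference -5.11, SE 0.7096, limma adjusted p = 0.000587). The groups were far apart, IgG1 replicate 3 being nearest to the lowest IgM library. Igkv1-117 (68121046 to 68121827, plus strand) and Igkv1-110 (68270485 to 68271267, plus strand) are 97.2% identical, so how their reads divide is uncertain. Igkv1-117 had 63.5, 156, 95.4, 144 and 158 FPKM in IgG1, against 1219.9, 1027, 1087, 2201 and 1914 FPKM in IgM libraries (log2 difference -3.59, limma adjusted p = 5.10e-05). Igkv1-110 had 67.7, 36.3, 104, 84.5 and 158 FPKM in IgG1, against 1385, 1155, 686, 3559.8 and 1016 FPKM in IgM libraries (log2 difference -4.01, limma adjusted p = 0.000398). Both were low in all IgG1 libraries, and IgM replicate 4 was highest for both.

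Igkv12-44 (69814631 to 69815154, minus strand) averaged 49.9 ± 56.0 FPKM in IgG1 and 1130.4 ± 811 FPKM in IgM libraries, with IgG1 replicate 5 at 149 FPKM nearest to the lowest IgM library at 357 FPKM (log2 difference -4.70, limma adjusted p = 0.00101). Igkv3-5, which lies 62.5 kb from Igkc and is 98.3% identical to Igkv3-10, averaged 9.05 ± 5.98 FPKM in IgG1 and 228 ± 193 FPKM in IgM libraries (log2 difference -4.43, limma adjusted p = 0.00128). Igkv8-24 had 26.5 to 56.4 FPKM in IgG1 and 64.1 to 1590.4 FPKM in IgM libraries, so IgM replicate 3 at 64.1 FPKM nearly met the IgG1 range (log2 difference -3.40, limma adjusted p = 0.00801). Not all called genes separated the groups library by library. Igkv12-89 had 21.6 to 144 FPKM in IgG1 libraries, against 1445 to 2555 FPKM in 4 IgM libraries and 70.0 FPKM in IgM replicate 3 (log2 difference -4.16, limma adjusted p = 0.0166). Igkv12-46 had 17.5 to 80.6 FPKM in IgG1 libraries, against 1551 to 2553 FPKM in 4 IgM libraries and 27.3 FPKM in IgM replicate 3 (log2 difference -4.07, limma adjusted p = 0.0362). IgM replicate 3 thus overlapped the IgG1 range for these 2 genes of the Igkv12 family. Igkv12-46 is 95.4% identical to Igkv12-44, which is 95.7% identical to Igkv12-41, so how their reads divide is uncertain. Leaving out any of 9 libraries, each except IgM replicate 3, ended the call of Igkv12-46 (limma adjusted p = 0.0564 to 0.0801).

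Igkv4-55 (69607275 to 69607828, minus strand) averaged 156 ± 61.1 FPKM in IgG1 and 1437 ± 842 FPKM in IgM libraries, where replicate 2 was within the IgG1 range at 241 FPKM (log2 difference -2.91, limma adjusted p = 0.00689). It is 96.0% identical to Igkv4-68, so its value is uncertain. Igkv14-126 (67896172 to 67896642, plus strand) averaged 364 ± 340.1 FPKM in IgG1 and 1869 ± 1389.7 FPKM in IgM libraries (log2 difference -2.38, limma adjusted p = 0.0311). Its IgG1 replicate 5 lay above the 2 lowest IgM libraries. The call ended without any of 7 single libraries, IgG1 replicates 1, 2, 3 and 4 and IgM replicates 1, 3 and 4 (limma adjusted p = 0.0504 to 0.0702). Another 8 genes were called lower with overlap between groups, Igkv1-99, Igkv3-4, Igkv4-91, Igkv5-48, Igkv6-23, Igkv8-27, Igkv9-120 and Igkv10-96. Their log2 differences ran from -4.90 for Igkv1-99 to -1.79 for Igkv5-48 (limma adjusted p = 0.0110 to 0.0482). Igkv1-99 and Igkv10-96 kept their calls whichever library was left out. The calls of the other 6 ended without most single libraries (limma adjusted p = 0.0511 to 0.0995). Those of Igkv3-4 held only without IgG1 replicate 5 or IgM replicate 3, of Igkv4-91 without IgG1 replicate 1 or IgM replicate 5, and of Igkv5-48 without IgG1 replicate 5 or IgM replicate 1. Those of Igkv6-23 held only without IgG1 replicate 2 or IgM replicate 1, of Igkv8-27 without IgG1 replicate 3 or 4 or IgM replicate 3, and of Igkv9-120 without IgM replicate 3. The abundant genes Igkv6-15, Igkv19-93 and Igkv4-57 did not pass. Igkv6-15 (70406469 to 70406992, minus strand) had 104, 226, 529, 219.6 and 1787 FPKM in IgG1, against 2314, 116, 2578, 2942 and 3288 FPKM in IgM libraries (log2 difference -2.08, limma adjusted p = 0.192). IgG1 replicate 5 and IgM replicate 2 each lay apart from their groups. Igkv19-93 ranged from 135.0 to 1242 FPKM in IgG1 and from 774 to 1837 FPKM in IgM libraries (limma adjusted p = 0.131). Igkv4-57 ranged from 235 to 646 FPKM in IgG1 and from 9.36 to 2811 FPKM in IgM libraries (limma adjusted p = 0.855).

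**Figure D3:**
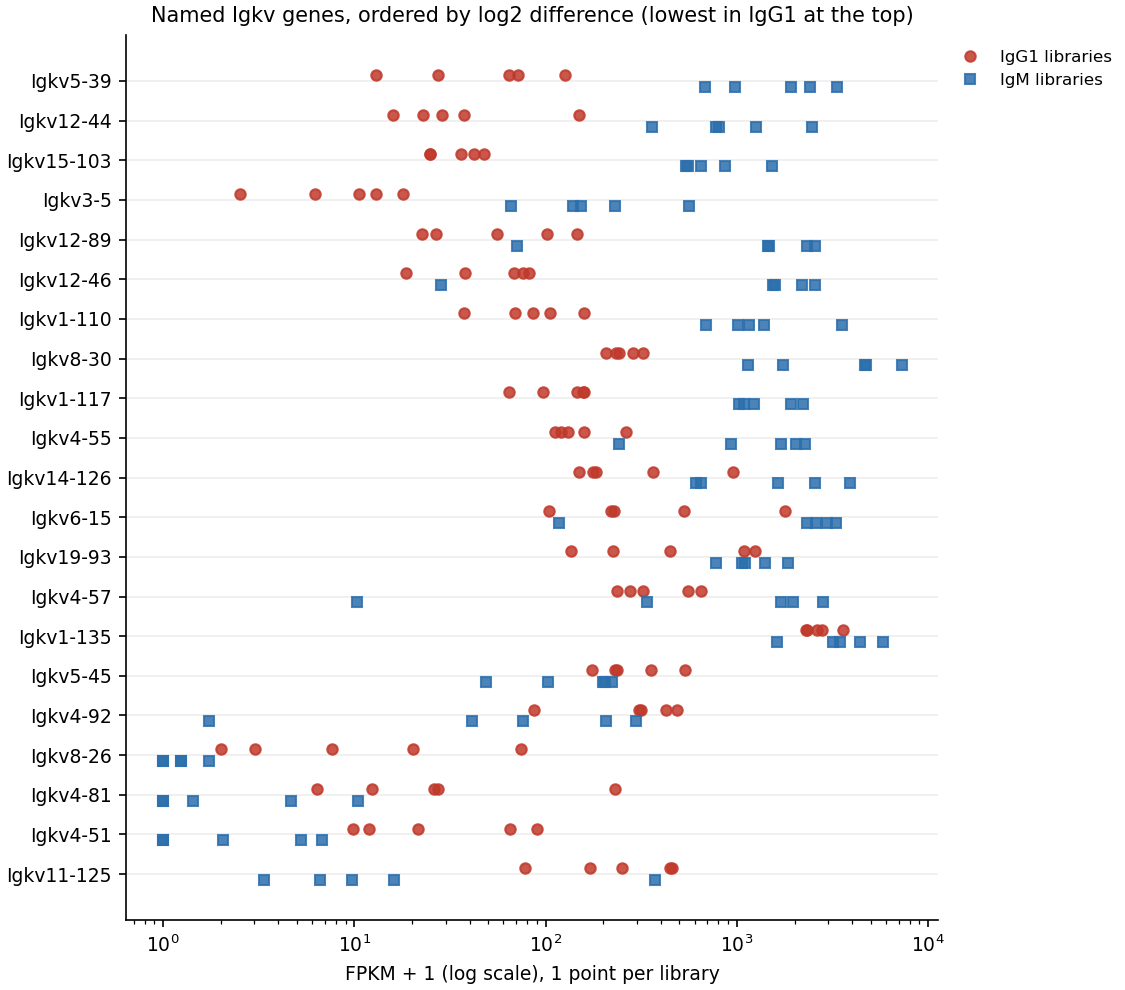
FPKM + 1 on a logarithmic axis for 21 named Igkv genes, 1 point per library, IgG1 as red circles above IgM as blue squares in each row, ordered by log2 difference with the lowest in IgG1 at the top. Igkv8-30 keeps its 5 IgG1 libraries between 205 and 322 FPKM and its IgM libraries between 1148 and 7250.4 FPKM, and Igkv6-15, Igkv4-57 and Igkv1-135 overlap.

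The 4 V genes called higher in IgG1 cells were low or absent in most IgM libraries. Igkv11-125 (67913573 to 67914052, plus strand), the single member of its family here, had 76.9, 169.8, 249, 457 and 444 FPKM in IgG1, against 2.35, 8.68, 5.63, 369.8 and 15.1 FPKM in IgM libraries. Only IgM replicate 4 lay within the IgG1 range (log2 difference 3.80, SE 1.26, limma adjusted p = 0.0440). Igkv4-51 had 10.9, 8.80, 88.8, 64.4 and 20.4 FPKM in IgG1, against 0, 4.26, 5.78, 1.06 and 0 FPKM in IgM libraries (log2 difference 3.52, SE 0.860, limma adjusted p = 0.0121). Igkv4-81 had 11.3, 5.41, 26.4, 25.0 and 229.8 FPKM in IgG1, against 3.63, 0.438, 9.41, 0 and 0 FPKM in IgM libraries (log2 difference 3.50, limma adjusted p = 0.0350). Igkv8-26, which is 97.8% identical to Igkv8-18, had 1.01, 19.1, 2.02, 6.62 and 73.7 FPKM in IgG1, against 0, 0.243, 0, 0.242 and 0.737 FPKM in IgM libraries (log2 difference 2.93, limma adjusted p = 0.0394). Groups did not overlap for Igkv4-51 and Igkv8-26. A listed 0 can also be a failed estimate. Igkv4-51 alone kept its call without the filter on low genes and whichever library was left out (largest limma adjusted p = 0.0304). It is 96.4% identical to Igkv4-58, so how their reads divide is uncertain. Igkv4-58 averaged 96.1 FPKM in IgG1 and 651 FPKM in IgM libraries and was not called (limma adjusted p = 0.376). The call of Igkv11-125 ended without any of 8 libraries, all but IgG1 replicate 1 and IgM replicate 4 (limma adjusted p = 0.0713 to 0.0927). That of Igkv8-26 ended without any of 7, IgG1 replicates 2 and 4 and each IgM replicate (limma adjusted p = 0.0615 to 0.0844). That of Igkv4-81 ended without any of 5, IgG1 replicates 3 and 4 and IgM replicates 2, 4 and 5 (limma adjusted p = 0.0656 to 0.0778).

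Usage, the share of a V gene in the summed Igkv FPKM of its library, takes the overall kappa level out, and it put Igkv1-135 first in IgG1 cells. Igkv1-135 (67609713 to 67610508, plus strand), which lies 3116 kb from Igkc near the far end of the locus, held 17.7, 21.001, 25.2, 16.4 and 15.4% of summed Igkv FPKM in IgG1, against 8.63, 3.90, 8.21, 6.75 and 7.01% in IgM libraries. All IgG1 libraries were above all IgM libraries, and the mean was 19.1% ± 3.99 in IgG1 and 6.90% ± 1.86 in IgM libraries (SD, n = 5 each). Its level did not pass the test: it had 2304, 2317, 3598, 2629.7 and 2796 FPKM in IgG1, against 5813, 1616, 3474, 4391 and 3190.4 FPKM in IgM libraries (log2 difference -0.34, SE 0.327, limma adjusted p = 0.455). It was the highest V gene in all 5 IgG1 libraries and in IgM replicate 1, while Igkv12-89 was highest in IgM replicate 2 and Igkv8-30 in IgM replicates 3, 4 and 5. No other gene was among the top 10 of every library. Igkv1-135 is 96.7% identical to Igkv1-133, so part of its reads could belong to that gene.

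**Figure D4:**
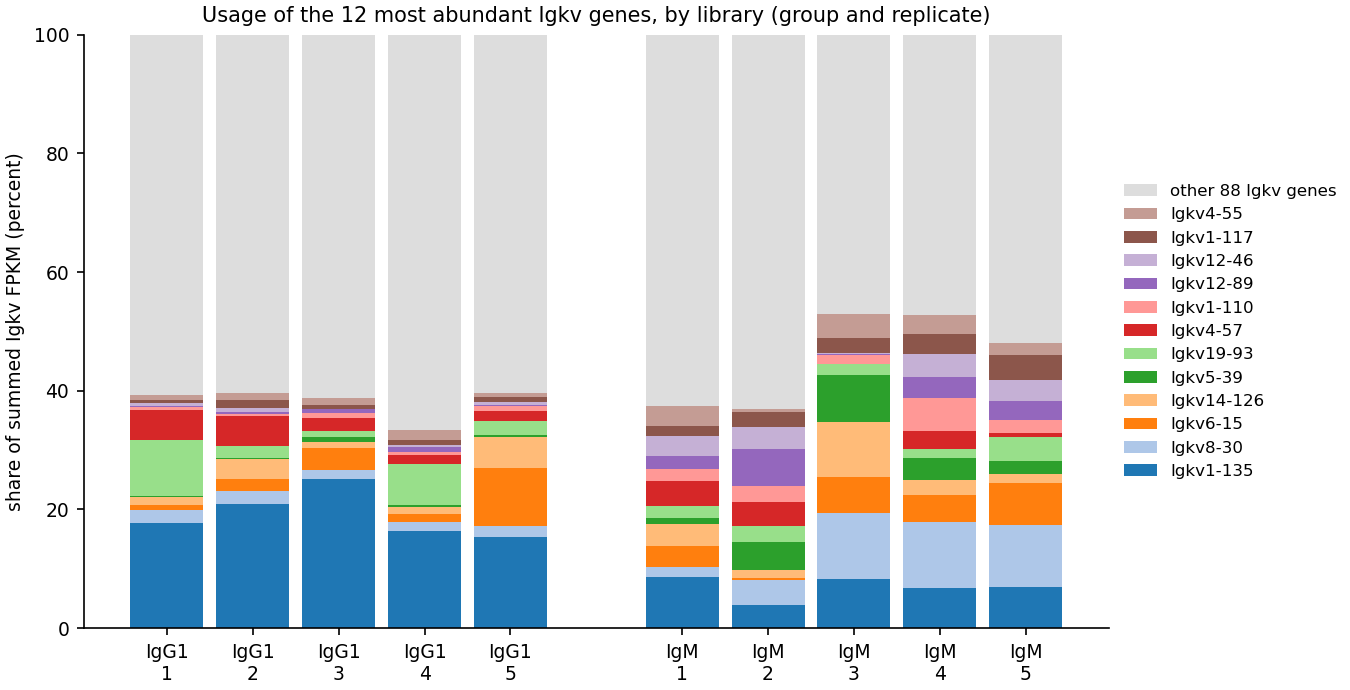
Share of summed Igkv FPKM in percent for the 12 most abundant Igkv genes, stacked for each library, with the 88 others in grey, IgG1 libraries on the left and IgM libraries on the right. The bottom block, Igkv1-135, takes 15.4 to 25.2% in IgG1 and 3.90 to 8.63% in IgM libraries, and the block above it, Igkv8-30, reaches 10.3 to 11.2% in IgM replicates 3, 4 and 5.

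Usage was tested after every library had been scaled to the same summed Igkv FPKM, with each gene's own variance, a choice made after the data were seen. A limma adjusted p for usage thus comes from limma's linear fit without shared variance, unlike that for level. This scaling moves the median log2 difference of all genes tested to 1.56 and calls 85.9% of them higher and 0.808% lower, so a call says how a V gene moved relative to kappa V transcripts as a whole. The 97 Igkv genes tested had a median usage log2 difference of 0.92, with 67 positive and 30 negative. A gain in log2 usage is thus not measured from the typical V gene, and counts of higher and lower calls are not evenly placed. On that scale 16 Igkv genes were called higher and 8 lower in IgG1 cells, and limma's shared variance gave 18 and 8, with 88.0% and 1.0% of all genes called. Because the scaling makes most genes pass, the adjustment over all genes tested is slight for usage. Without adjustment, the same threshold and each gene's own variance gave 19 higher and 8 lower Igkv genes. An adjustment over the Igkv genes alone would be stricter and was not run. How many usage calls it would keep is not known, also among calls well under the threshold. Examples are Igkv4-92 and Igkv8-30, whose unadjusted p-values in the fit with each gene's own variance were 0.00879 and 0.0114. Groups did not overlap in usage for 8 higher and 5 lower Igkv genes (75.7% higher and 0.354% lower of all genes tested). Shares sum to a whole, so a larger share of 1 gene goes with a smaller summed share of the others. Igkv1-135 gained in share while its mean level was 2729 FPKM in IgG1 and 3697 FPKM in IgM libraries. Its own usage difference was 1.50 (SE 0.242, limma adjusted p = 0.000485).

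Igkv11-125 had the largest gain of usage on the log2 scale, with 0.592, 1.54, 1.75, 2.86 and 2.44% of summed Igkv FPKM in IgG1, against 0.00349, 0.0209, 0.0133, 0.568 and 0.0331% in IgM libraries (usage log2 difference 5.54, SE 1.16, limma adjusted p = 0.00207). Its IgG1 replicate 1 and IgM replicate 4 nearly met. Igkv5-45, 98.6% identical to Igkv5-43, held 2.17% ± 1.15 in IgG1 and 0.308% ± 0.179 in IgM libraries (usage log2 difference 2.90, limma adjusted p = 0.000900). Igkv4-92 held 2.23% ± 1.16 in IgG1 and 0.206% ± 0.179 in IgM libraries (usage log2 difference 4.26, limma adjusted p = 0.0112). Neither passed in level (limma adjusted p = 0.133 and 0.199), and in usage neither overlapped between groups. Igkv4-51, Igkv4-81 and Igkv8-26, called higher in level, also passed in usage, at mean shares of 0.260, 0.348 and 0.128% in IgG1 and 0.00512, 0.00574 and 0.000515% in IgM libraries.

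The largest loss of usage on the log2 scale was that of Igkv5-39, with 0.0926, 0.239, 0.875, 0.444 and 0.349% in IgG1, against 1.01, 4.62, 7.91, 3.72 and 2.16% in IgM libraries (usage log2 difference -3.30, SE 0.731, limma adjusted p = 0.00282). Igkv15-103 held 0.236% ± 0.0552 in IgG1 and 1.74% ± 1.17 in IgM libraries (usage log2 difference -2.68, limma adjusted p = 0.000446). Igkv1-110 held 0.596% ± 0.209 in IgG1 and 2.83% ± 1.53 in IgM libraries (usage log2 difference -2.18, limma adjusted p = 0.000777), and Igkv1-117 0.868% ± 0.348 in IgG1 and 2.89% ± 0.923 in IgM libraries (usage log2 difference -1.76, limma adjusted p = 0.00107). For these 4 genes and Igkv3-5 the groups did not overlap. Igkv8-30 held 1.81% ± 0.373 in IgG1 and 7.71% ± 4.44 in IgM libraries, overlapping through IgM replicate 1 at 1.70% (usage log2 difference -1.80, limma adjusted p = 0.0142).

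By family, Igkv1 held 22.6% ± 5.39 of summed Igkv FPKM in IgG1 and 14.3% ± 1.98 in IgM libraries with no overlap. Without Igkv1-135 it held 4.39% ± 2.45 in IgG1 and 7.90% ± 2.89 in IgM libraries. The Igkv12 family, 6 genes, held 2.08% ± 0.501 in IgG1 and 9.66% ± 4.86 in IgM libraries with no overlap. The largest family by gene number, Igkv4 with 26 genes, held 18.1% ± 4.13 in IgG1 and 19.0% ± 3.93 in IgM libraries, a difference smaller than the spread between libraries. Igkv16-104, a single gene, held 4.11% ± 2.74 in IgG1 and 0.820% ± 0.470 in IgM libraries, overlapping through IgG1 replicate 1.

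The side of the locus nearest Igkc was used less in IgG1 cells. The 40 Igkv genes under 1000 kb from Igkc held 22.0% ± 2.95 of summed Igkv FPKM in IgG1 and 37.1% ± 7.19 in IgM libraries, with 18.9 to 26.4% in IgG1 below 28.9 to 48.4% in IgM. The groups stayed apart without Igkv1-135, at 27.2% in IgG1 and 39.8% in IgM libraries, and without Igkv8-30, at 20.6% in IgG1 and 31.8% in IgM libraries. They then nearly met. Without Igkv1-135 the highest IgG1 library was at 31.2% and the lowest IgM library at 31.7%. Without Igkv8-30 these were at 25.1% and 26.2%. Leaving out both genes together was not run. The 29 genes at 2000 kb or more held 50.7% ± 5.95 in IgG1 and 36.1% ± 5.36 in IgM libraries, with overlap, and 39.0% in IgG1 and 31.4% in IgM libraries without Igkv1-135. The 38 plus-strand genes, which share the orientation of Igkc, held 50.9% ± 4.06 in IgG1 and 38.6% ± 6.45 in IgM libraries with no overlap. Once Igkv1-135 was left out they overlapped, at 39.3% ± 3.94 in IgG1 and 34.1% ± 5.89 in IgM libraries. Calls in level were not limited to a stretch of the locus: 10 of 37 tested genes under 1000 kb, 3 of 31 at 1000 to 2000 kb and 7 of 29 at 2000 kb or more were called lower. These sums over members carry no test.

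**Figure D5:**
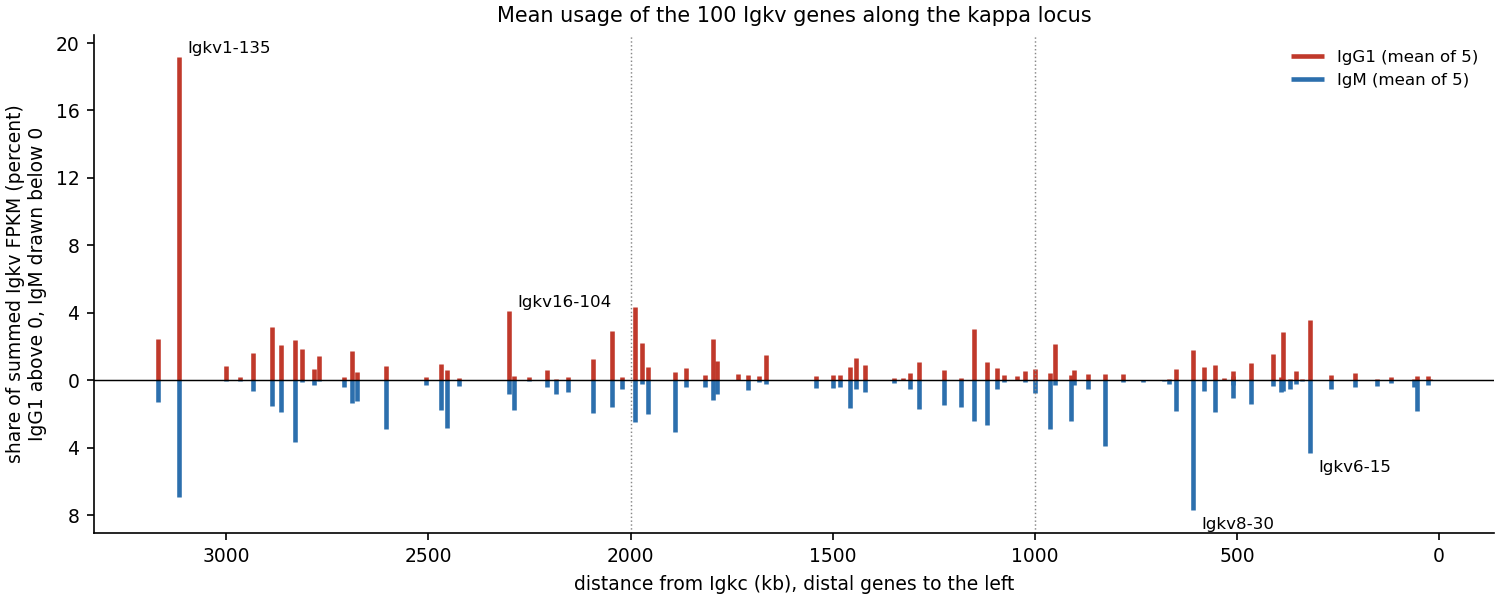
Mean share of summed Igkv FPKM in percent for each of the 100 Igkv genes by distance from Igkc in kb, IgG1 drawn upward in red and IgM downward in blue, with dotted lines at 1000 and 2000 kb. Igkv1-135 at 3116 kb stands out in both groups at 19.1% in IgG1 and 6.90% in IgM, and Igkv8-30 is the tallest IgM bar at 7.71%.

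Usage was uneven in both groups and differed from library to library. The effective number of Igkv genes, the number of equally used genes that would give the same Shannon entropy, was 34.5 ± 2.00 in IgG1 and 37.7 ± 7.10 in IgM libraries, with overlap. Without Igkv1-135 it was 44.0 ± 3.00 in IgG1 and 37.8 ± 7.56 in IgM libraries. The most used gene of a library held 19.1% ± 3.99 in IgG1 and 9.48% ± 2.13 in IgM libraries with no overlap, and 9.38% in IgG1 and 9.66% in IgM libraries when Igkv1-135 was left out. The most used genes reached 50% of summed Igkv FPKM after 7.8 ± 0.837 genes in IgG1 and 10.6 ± 2.61 genes in IgM libraries. The pattern of the 97 tested genes spread more in IgM cells, with a larger coefficient of variation there for 75 of them. The highest library exceeded the lowest at least 100-fold for 9 genes in IgG1 and 45 in IgM, counting a value of 0.

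Libraries of a group shared more usage with each other, on the median, than with the other group. The usage shared by 2 libraries, summed over genes as the smaller of both shares, had a median of 63.7% (57.5 to 67.1) over the 10 pairs within IgG1, 42.2% (35.0 to 52.4) over the 25 pairs between groups and 52.8% (42.5 to 63.2) over the 10 pairs within IgM. These pairs reuse the same libraries, and the ranges within IgM and between groups overlap. Within each group, 27 genes were in the top 10 of at least 1 library, 11 of them in both groups. Of the 27, 14 in IgG1 and 16 in IgM were in the top 10 of a single library of their group. Igkv9-123 and Igkv9-129 ranked 3 and 4 in IgG1 replicate 5 at 1204 and 1114 FPKM. Igkv16-104 and Igkv8-19 ranked 2 and 3 in IgG1 replicate 4 at 1341 and 1203 FPKM. In IgM cells, Igkv17-127 ranked 2 in IgM replicate 1 at 4132 FPKM.

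Among other genes of the kappa pathway, regulators of light chain transcription were called in both directions. Of 18 factors that act at kappa enhancers and promoters, 14 were tested, 2 were higher and 6 lower in IgG1 cells, and the median log2 difference was -0.27. Among all genes tested, 18.1% were called higher and 20.2% lower, with a median of -0.05. Irf8, which binds the light chain enhancers together with PU.1, averaged 10.3 ± 1.20 FPKM in IgG1 and 33.4 ± 3.07 FPKM in IgM libraries (log2 difference -1.61, limma adjusted p = 1.08e-08). Ikzf3, the lymphoid factor Aiolos, averaged 42.3 ± 2.95 FPKM in IgG1 and 76.3 ± 5.31 FPKM in IgM libraries (log2 difference -0.84, limma adjusted p = 2.02e-07). Pou2af1, the coactivator of Oct factors at immunoglobulin promoters, averaged 248 ± 16.0 FPKM in IgG1 and 320.3 ± 11.6 FPKM in IgM libraries (log2 difference -0.37, limma adjusted p = 2.64e-05). The groups did not overlap for any of the 3. Irf4, Tcf4 and Ikzf1 were the others called lower. Spi1, which encodes PU.1, and Tcf3, which encodes the E-box factor E2A, were called higher, by 0.57 and 0.35 on the log2 scale (limma adjusted p = 0.00180 and 0.00587).

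Of 15 genes of V(D)J recombination and the surrogate light chain, 9 were tested, 2 were higher and 2 lower, near the 18.1% higher and 20.2% lower of all genes tested, with a median log2 difference of -0.01. Rag1 and Rag2, which cut the gene segments, and Dntt, which adds bases at the joints, were listed at 0 in all libraries, as was Vpreb2. Hmgb1, a cofactor of RAG cleavage with wider roles in chromatin, was higher by 0.22 on the log2 scale (limma adjusted p = 0.00332), and Xrcc6, the Ku70 end-joining protein, by 0.42 (limma adjusted p = 0.0127). Vpreb3, a relative of the surrogate light chain proteins, was lower (log2 difference -0.55, limma adjusted p = 0.00335). The list of 8 hypermutation genes had 7 tested, 1 higher and none lower, with a median log2 difference of 0.14, beside the same 18.1% and 20.2% of all genes tested. Apex1, the abasic site endonuclease, averaged 22.1 ± 4.39 FPKM in IgG1 and 9.95 ± 2.42 FPKM in IgM libraries (log2 difference 1.08, limma adjusted p = 8.09e-05). The exonuclease Exo1 and the polymerase Polh did not pass (limma adjusted p = 0.0742 and 0.479).

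The lambda genes held most light chain constant FPKM in both groups, and their log2 differences ran from -1.03 for Iglv2 to 0.10 for Iglc3, against -1.61 for Igkc. Of 6 lambda genes, 3 were lower in IgG1 cells, where 20.2% of all genes tested were, and their median log2 difference was -0.23. Iglc1 averaged 315974 ± 16366 FPKM in IgG1 and 364400.0 ± 25113 FPKM in IgM libraries (log2 difference -0.20, limma adjusted p = 0.00980). Iglc2 had a log2 difference of -0.44 (limma adjusted p = 0.0400), and Iglv2 averaged 64974 ± 4954 FPKM in IgG1 and 132775 ± 15307 FPKM in IgM libraries (log2 difference -1.03, limma adjusted p = 2.40e-05). Iglv1, the most abundant lambda V gene here, averaged 238923 FPKM in IgG1 and 233551 FPKM in IgM libraries (limma adjusted p = 0.699), and Iglc3 did not pass (limma adjusted p = 0.567). Iglc2 and Iglc3 are close copies, and leaving out any of 8 libraries, each except IgM replicates 2 and 3, ended the call of Iglc2 (limma adjusted p = 0.0614 to 0.0867).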

How the data were processed

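RNA of 10 libraries, 5 IgG1 and 5 IgM, was grouped by sample title. Per the labels' protocols, RNA came from the miRNeasy Micro kit and libraries from the SMART-Seq mRNA HT LP kit, which keeps no strand. Per the submitters' processing notes, HISAT2 2.1.0, Cufflinks 2.2.1, Cuffdiff and GRCm38 were used; what each did, with which settings and annotation, is not given in the sources used here. The deposited values are FPKM per gene and library, per the file headers. How fragments shared by similar V genes were assigned is not given in the sources used here. FPKM is a share of its library.

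Of 47719 identifiers, 47219 matched GENCODE M21, which gave symbols, types, coordinates and coding sequences; identities between members came from aligned coding sequences. Depth assumes a mean fragment of 200 bases. All genes averaging 1 FPKM or more were tested on log2(FPKM + 1), which understates changes of low genes, with limma 3.58.1 in R 4.3.3 (trend, robust, two-sided, Benjamini-Hochberg over all genes tested, threshold 0.05). The usage test repeats this after scaling libraries to a common summed Igkv FPKM. Because that scaling makes all genes vary together, its shared variance gave prior degrees of freedom without limit, and the p-values printed for usage come from each gene's own variance, chosen after the data were seen. Light chain shares were compared with exact permutation tests in scipy 1.17.1. Python 3.11.15 was used with pandas 2.3.3, numpy 2.4.6 and matplotlib 3.10.9. On data simulated for the level comparison over 9900 genes, 22 of 50 genes changed 1.5-fold, 34 of 50 at 2-fold and 45 of 50 at 3-fold (folds of FPKM + 1) were recovered, with 5 false calls. The changed genes were drawn at random from all genes tested. Recovery among the Igkv genes, which varied far more between libraries, was not measured, so these rates do not describe them.

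Named genes are Igkc and the lambda constant genes, the 12 most abundant Igkv genes, up to 6 in each direction of level and of usage with the largest change among those that passed without overlap, any with at least 10% of a library, all of a direction with 5 or fewer calls, and up to 3 per list. Others (Igkv8-24, Igkv16-104, the other V genes called lower, the genes named by rank, and the further regulators, recombination and hypermutation genes) were chosen after their values were seen. The members and lists were chosen with earlier results of these data known. Alternatives were other pseudocounts (0.1 and 5) and filters, scalings and variance settings, a replicate block, each library left out, and members at least 95% identical to another left out.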

Additional observations from a re-analysis of the deposited data

Results flagged for a closer look

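In 7 of 54 groups of 5 libraries screened for the named kappa measures, 1 library stood far from the other 4. Chance alone flags about 1 in 20 such groups, and values spread over orders of magnitude are flagged more easily. IgG1 replicate 5 was the high library in 5 of the 7. It had 1786.58 FPKM of Igkv6-15 (103.609 to 528.959 in the other IgG1 libraries), 953.6 FPKM of Igkv14-126 (147.803 to 360.968), 229.848 FPKM of Igkv4-81 (5.40542 to 26.4065), 149.06 FPKM of Igkv12-44 (14.8362 to 36.2761) and 73.693 FPKM of Igkv8-26 (1.01428 to 19.1326). IgM replicate 4 was the high library in the other 2, with 3559.81 FPKM of Igkv1-110 (685.673 to 1384.75 in the other IgM libraries) and 369.836 FPKM of Igkv11-125 (2.35116 to 15.0743).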

How the results depend on the processing

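The fall of Igkc kept its direction and call under every alternative run, with a log2 difference of -1.68 to -1.51 when libraries were left out in turn. Igkv genes called higher numbered 4, but 2 with a pseudocount of 5, 1 without a filter and 1 to 4 with a library left out; those called lower numbered 20, and 13 to 18 with a library left out (13 without IgG1 replicate 1, 2, 3 or 4 or IgM replicate 4, 18 without IgM replicate 3). The higher count was 2 or fewer without IgG1 replicate 2, 3 or 4 or IgM replicate 1, 2, 3 or 5. Usage calls with limma's shared variance, 18 higher and 8 lower, went to 29 higher and 13 lower with eBayes without trend or robust. With a library left out, that fit gave 14 to 20 higher and 7 to 13 lower, 13 without IgM replicate 3. The usage fit with each gene's own variance, which gave the printed p-values, was not rerun with a library left out. Without members at least 95% identical to another, the IgG1 minus IgM difference in summed Igkv FPKM was -21743.6 (-37846.1 with all). That in the effective number of Igkv genes was 1.04 (-3.21 with all, the opposite sign), and that in the largest share of 1 Igkv gene was 1.13 percentage points (9.67 with all); Igkv1-135 is among the genes left out. Differences reversed with a library left out for 3 results that had not passed: Igkv4-57 level (-1.82 to 0.20), Iglc3 level (-0.0038 to 0.19) and Igkv6-15 usage (-1.08 to 0.15). Calls in level ended with gene-wise variances for Igkv6-23, Igkv9-120 and Igkv11-125 (adjusted p = 0.0501 to 0.0542), with a pseudocount of 5 for Igkv4-81 and Igkv8-26 (0.0641 and 0.103), and for Hmgb1 and Iglc1 when neither the trend nor the robust option was used (0.0547 and 0.0618). Without a filter, where more genes are tested, they ended for Igkv4-81, Igkv4-91, Igkv5-48, Igkv6-23, Igkv8-26, Igkv9-120, Igkv11-125, Igkv12-46, Iglc2 and Xrcc6 (0.0515 to 0.0718). The cause of these changes was not tested.

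Same-numbered libraries showed little shared deviation, with correlations of -0.0357 to 0.0966, and 1 of 5 IgG1 libraries matched its own number best. Such correlations cannot settle whether the samples are paired by replicate number. With a replicate block, 4 Igkv genes were called higher, 3 of them also called without it, and 14 lower, all 14 also called without it. Calls were lost for Igkv4-81, Igkv5-48, Igkv6-23, Igkv8-27, Igkv9-120, Igkv12-89 and Igkv14-126 (adjusted p = 0.0676 to 0.141). With the block, the difference of -7.13 in the kappa share of light chain constant FPKM had p = 0.0625 in an exact paired permutation test, the smallest that 5 pairs allow. Depth is estimated, so no counting intervals are given, and low values near 1 FPKM rest on few fragments.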

Other observations

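Genes of the kappa locus that are not members also gave reads. Of 60 Igkv pseudogenes, 14 had a mean of at least 1 FPKM and 5 of at least 10 FPKM. The highest of them by mean, Igkv4-77, chosen after its values were seen, had 550.4, 465.7, 500.1, 632.0 and 599.7 FPKM in IgG1, against 598.7, 628.0, 756.0, 715.6 and 301.2 FPKM in IgM libraries (log2 difference -0.07, SE 0.250, limma adjusted p = 0.861). Its level thus overlapped between groups, as for all but 8 lower and 2 higher of the 97 Igkv genes tested, while summed Igkv did not. Relative to summed Igkv FPKM, Igkv4-77 came to 3.84% ± 0.426 in IgG1 and 1.19% ± 0.458 in IgM libraries with no overlap. Of 5 Igkj segments, 2 were above 0, in 3 libraries in all. Igkj1 had 21012 FPKM in IgG1 replicate 3. Igkj4 had 22235 FPKM in IgG1 replicate 4 and 86582 FPKM in IgM replicate 5. Each value exceeded Igkc in its library (16897, 19279 and 46119.9 FPKM), while the same segments were at 0 elsewhere. The cause was not tested. Nhej1, an end-joining factor of the recombination list, had 88.7 FPKM in IgG1 replicate 3, against 3.48 to 7.67 FPKM in the other IgG1 libraries and 3.02 to 7.11 FPKM in the IgM libraries; it was also chosen after its values were seen.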
